A study of Mus musculus with 17 samples.

Results

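Liver RNA of male Rj:NMRI mice fed an arachidonate-rich fungal oil was set against liver RNA of mice fed the control diet. The comparison rests on 6 of the 17 arrays of the series, chosen by their titles and diet labels. The 2 fungal-oil arrays hold 1 RNA hybridised to chips A and B of the Affymetrix Mu11K set, and the 4 control arrays hold 2 RNAs on the same chips. Probe sets were used where their mean over the 5 liver RNAs of the study was at or above the median of the chip. This kept 6537 of 13069 probe sets and 3515 genes, each gene represented by its brightest kept probe set.

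Groups were fed as follows. The fungal-oil diet held 1.1% fungal oil, which supplied 0.5% of diet weight and 1.0% of energy as arachidonate, with no fish oil. The other oil diets held 1.1% fungal oil together with 1.9% fish oil (both oils), or 1.9% fish oil alone. The control diet held neither oil. All diets shared a purified fat-free AIN93G base with milk fat, palm olein, sunflower oil, soybean oil and medium chain triacylglycerol oil, and the test oils took the place of part of the last of these. Each diet went to 10 mice, caged 10 together, until day 57 or 58. The mice were killed in the morning after a possible fast of 0 to 6 h, and livers of 5 randomly selected mice per diet were taken. The labels used here do not say whether livers were pooled or whether the 2 control RNAs came from separate animals, so the control spread may be technical. Diet, cage and handling of 1 RNA cannot be told apart.

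Arachidonate is an omega-6 polyunsaturated fatty acid that is built into membrane phospholipids and is the substrate of the cyclooxygenases, lipoxygenases and epoxygenases. Polyunsaturated fatty acids of both the omega-6 and omega-3 families are known in rodent liver to lower the genes of fatty acid synthesis, mainly through the transcription factor SREBP-1c, and to activate PPAR alpha, which drives fatty acid oxidation and the Cyp4a genes. Many liver genes of these pathways also follow the time of day and the last meal.

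Values are scanner intensities as deposited, scaled by the authors to a nearly equal mean on every array, and can fall below 0. Log2 values were taken after raising intensities under 15.0 to that floor. The control RNAs correlated across probe sets (r = 0.995, chip A; r = 0.994, chip B), with an SD of their log2 difference over kept probe sets of 0.50 for chip A and 0.80 for chip B. The 3'/5' signal ratio of Gapdh, a measure of RNA integrity in which a higher value means fewer full-length transcripts, was 2.48 and 2.51 in the fungal-oil RNA and between 1.91 and 2.23 in the controls. That of actin was 3.87 on chip A with fungal oil, within the controls at 3.94 and 3.42, and 4.17 on chip B, above them at 3.71 and 3.38. The part of RNA integrity in the differences below was not tested. The markers of the labelled tissue were present: the 8 hepatocyte marker genes kept summed to 53730 with fungal oil and to 53463 and 49111 in the controls.

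The fungal-oil liver differed from the controls at few bright genes and, over all probe sets, hardly more than the controls differed from it and from each other. The fungal-oil RNA was at least 2-fold from both controls at 350 of 6537 probe sets (5.35%), 101 higher and 249 lower. Control 1 was as far from the fungal-oil RNA and control 2 at 311 probe sets (4.76%), and control 2 from the other two at 249 (3.81%). The excess lay on chip A and among bright probe sets, those at or above the 75th percentile of the chip (153.6 for chip A, 139.2 for chip B). The chip A counts were 116, 68 and 66 for the fungal-oil RNA, control 1 and control 2. Those of chip B were 234, 243 and 183. Among the 3269 bright probe sets they were 59, 35 and 13, which is 1.80%, 1.07% and 0.398%.

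**Figure D1:**
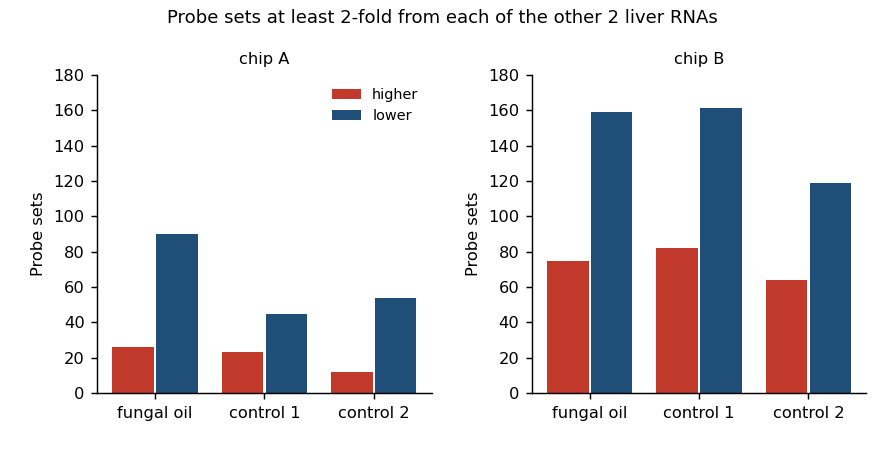
Number of kept probe sets (y axis) at which each of 3 liver RNAs (x axis: fungal oil, control 1, control 2) was at least 2-fold higher (red) or lower (blue) than each of the others, on chip A (left) and chip B (right). On chip A the fungal-oil RNA had 90 lower probe sets against 45 and 54 for the controls, whereas on chip B control 1 had as many as the fungal-oil RNA, 161 against 159.

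The test was limma's moderated linear model over the 5 liver RNAs as 4 diet groups, in which only the controls gave a spread. The fungal-oil RNA was taken to vary as they do. No probe set passed a Benjamini-Hochberg adjusted p of 0.05 (0 of 6537, 0% called, lowest adjusted p 0.415), while 599 had an unadjusted p under 0.05. Of these, 211 were higher with fungal oil (3.23% of probe sets) and 388 lower (5.94%). Over genes the unadjusted counts were 135 higher (3.84%) and 215 lower (6.12%). With the fit limited to the bright probe sets, 26 of 3269 passed, 7 higher (0.214%) and 19 lower (0.581%), with a lowest adjusted p of 0.0111. An exact permutation test of 1 RNA against 2 cannot give a p below 0.333, so a single gene outside this model has no test. Below, a gene is said to pass only in the bright subset, with its adjusted p there, and an unadjusted p under 0.05 is called nominal. The SE of a fungal oil minus control difference and the nominal label come from the fit over all kept probe sets. The bright subset was fitted anew with its own moderation, so its adjusted p does not follow from that SE.

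Without a test, 1137 of the 3515 genes stood above both controls (32.3%), 1025 between them and 1353 below both (38.5%). The median log2 difference over all kept genes was -0.02. At least 2-fold above both controls were 45 genes (1.28%) and 101 probe sets (1.55%), and at least 2-fold below both were 117 genes (3.33%) and 249 probe sets (3.81%). Among the 1878 bright genes, 10 were 2-fold above (0.532%) and 24 were 2-fold below (1.28%). These shares are the background for each gene group that follows.

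**Figure D2:**
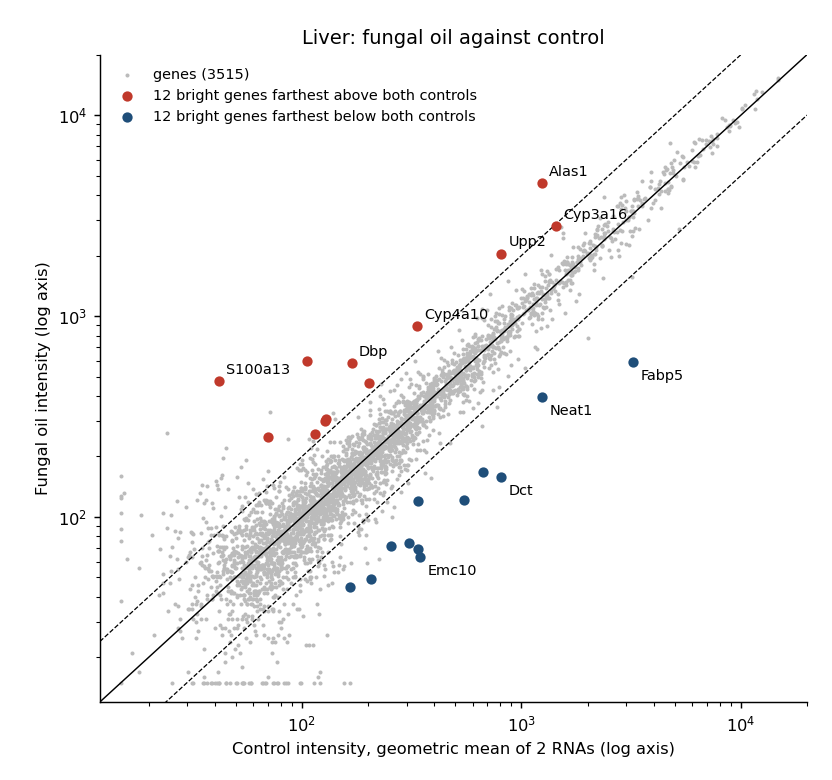
Intensity of each of the 3515 kept genes with fungal oil (y axis, log scale) against the geometric mean of the 2 controls (x axis, log scale), with values under 15.0 drawn at that floor. Coloured points are the bright genes farthest above or below both controls. Most genes lie along the diagonal, and Fabp5 at 593 against 3334 and 3137 is among the few bright genes far below it.

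Genes of fatty acid synthesis mostly read lower with fungal oil, among them the bright genes Acly, Fasn and Elovl6. Of the 11 genes measured, 8 stood below both controls, 1 between them and 2 above. The median log2 difference was -0.23, and 4 were nominally lower with none nominally higher. Acly, ATP citrate lyase, which makes the cytosolic acetyl-CoA for lipid synthesis, read 1568 with fungal oil, against 3118 and 3275 in the controls. That is a log2 difference of -1.03 (SE 0.08), and it passed in the bright subset (limma adjusted p 0.0249). A dimmer Acly probe set went the same way. Fasn, the synthase that builds palmitate, read 2715 with fungal oil and 5522 and 4906 in the controls, a log2 difference of -0.94 (SE 0.14) that did not pass (limma adjusted p 0.0762 in the bright subset). Elovl6, which lengthens palmitate to stearate, read 284 with fungal oil and 618 and 714 in the controls (log2 -1.23, SE 0.15, limma adjusted p 0.0483 in the bright subset). In all 3 the fungal-oil value lay well outside the control pair. Pgd, a dimmer gene of NADPH supply, read 60 with fungal oil, against 139 and 135 (log2 -1.19, SE 0.36), on an _f probe set.

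The rest of the pathway was closer to the controls. Scd1, the desaturase that makes oleate, read 8749 with fungal oil, against 9754 and 9811. Thrsp, a nuclear protein of lipogenic cells, stood above both controls at 2947, against 2444 and 2518. Malic enzyme Me1, a source of the NADPH that synthesis needs, read 465 with fungal oil and 593 and 501 in the controls. Among the 7 desaturation and elongation genes, 6 stood below both controls and 1 above, with a median of -0.29. This list shares genes with that of fatty acid synthesis, among them Elovl6. The elongase Elovl2, which acts on long polyunsaturated fatty acids, read 2291 with fungal oil, against 2853 and 3167. Tecr, the last enzyme of the elongation cycle, read 874, against 1159 and 1303. Hacd3, a dehydratase of the same cycle, was the exception at 1383 with fungal oil, against 1164 and 1054.

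Promoters of 4 of these lipid synthesis genes are shown because the genes read lower together. Each is the 250 bases before the RefSeq start (build GRCm38.p6), 5′ to 3′ on the gene's strand, for Fasn chr11:120824548-120824797 (minus strand), Acly chr11:100528001-100528250 (minus), Elovl6 chr3:129532136-129532385 (plus) and Gpam chr19:55127239-55127488 (minus, the earlier of 2 starts in the table). Capitals mark matches on either strand to CCAAT, the box bound by NF-Y, or to GGGCGG, the GC box bound by Sp1.
Fasn: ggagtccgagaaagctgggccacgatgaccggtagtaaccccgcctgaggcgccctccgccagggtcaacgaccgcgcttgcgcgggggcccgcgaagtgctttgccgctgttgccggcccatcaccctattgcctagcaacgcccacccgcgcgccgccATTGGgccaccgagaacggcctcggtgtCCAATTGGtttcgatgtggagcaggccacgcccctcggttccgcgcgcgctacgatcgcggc
Acly: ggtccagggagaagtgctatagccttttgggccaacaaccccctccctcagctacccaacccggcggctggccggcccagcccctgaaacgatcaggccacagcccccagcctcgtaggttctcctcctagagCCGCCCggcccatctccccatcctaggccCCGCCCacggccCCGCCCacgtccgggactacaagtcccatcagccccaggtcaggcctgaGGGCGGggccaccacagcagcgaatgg
Elovl6: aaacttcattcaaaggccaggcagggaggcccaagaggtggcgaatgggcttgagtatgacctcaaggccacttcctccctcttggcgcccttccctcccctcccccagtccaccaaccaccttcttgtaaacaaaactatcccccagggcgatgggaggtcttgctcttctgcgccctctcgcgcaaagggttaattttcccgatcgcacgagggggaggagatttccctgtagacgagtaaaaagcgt
Gpam: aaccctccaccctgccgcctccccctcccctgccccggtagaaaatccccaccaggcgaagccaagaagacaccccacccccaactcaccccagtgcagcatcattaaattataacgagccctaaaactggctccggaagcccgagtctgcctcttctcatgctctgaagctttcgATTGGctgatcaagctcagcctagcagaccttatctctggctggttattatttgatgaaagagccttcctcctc

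Fasn held 3 CCAAT matches, 90, 62 and 59 bases before the start, the last pair overlapping on opposite strands. Acly held 4 GGGCGG matches, 117, 88, 76 and 27 bases before the start. Gpam held 1 CCAAT match, 74 bases before the start, and the Elovl6 window held neither motif. The E-box CACGTG, also searched, was in none of the 4. Of 32851 windows of the same length, 33.8% held CCAAT, 32.7% held GGGCGG and 6.02% held CACGTG. A match is a description of the letters and not a shown binding site.

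Glycerolipid assembly was split, with 7 of 14 genes above both controls, 7 below both and a median log2 difference of 0.01. Gpam, the mitochondrial acyltransferase that starts glycerolipid synthesis, read 683 with fungal oil, against 1140 and 1228 in the controls (log2 -0.79, SE 0.10). Chka, choline kinase alpha of phosphatidylcholine synthesis, read 107 with fungal oil, against 239 and 223. Dgat2, which makes triacylglycerol, was above both controls at 5190, against 4885 and 4020, and the droplet coat protein Plin2 was near them at 2454, against 2522 and 2606. Neither Gpam nor Chka passed in the bright subset (limma adjusted p 0.0928 and 0.153).

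Of 6 cholesterol synthesis genes, 5 stood below both controls and 1 above, with a median of -0.26. Hmgcs1, the cytosolic HMG-CoA synthase, read 1039 with fungal oil, against 1506 and 1667 (log2 -0.61, SE 0.11, nominal). Idi1, the isopentenyl diphosphate isomerase, read 183, against 280 and 255 (nominal). The gene above, Insig2, was dim at 63, against -9 and 61.

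Among genes that bind, carry and import lipid, Fabp5 and Apoa4 read far lower and most others near the controls. Fabp5, an intracellular fatty acid binding protein, read 593 with fungal oil, against 3334 and 3137 in the controls, 5.45-fold lower (log2 -2.45, SE 0.13, limma adjusted p 0.0111 in the bright subset, the lowest of all). Fabp1, the main liver fatty acid binding protein, read 7657 with fungal oil, against 7849 and 7694. Apoa4, an apolipoprotein of triacylglycerol-rich particles, read 781 with fungal oil, against 1987 and 2034 (log2 -1.36, SE 0.10, limma adjusted p 0.0206 in the bright subset). The Fabp5 and Apoa4 probe sets are of the kind whose names end in _f, which match several related sequences, so their names are uncertain. Over the 15 lipoprotein genes, 4 were above both controls, 4 between and 7 below, with a median of -0.05. Apom, an HDL apolipoprotein, read 964 with fungal oil, against 1415 and 1348, and Scarb1, the HDL receptor, read 125, against 73 and 79, both nominal. Of 15 genes of fatty acid handling, 6 were above both controls, 3 between and 6 below.

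Genes of mitochondrial fatty acid oxidation mostly read higher with fungal oil, by less than 2-fold, with the carnitine system in the lead. Of 16 genes, 11 stood above both controls, 2 between and 3 below, the median was 0.15, and 5 were nominally higher, where 3.84% of all genes were, with none nominally lower. Cpt1a, the outer-membrane carnitine palmitoyltransferase that controls fatty acid entry, read 1285 with fungal oil, against 604 and 864 in the controls (log2 0.83, SE 0.27). Slc25a20, the carnitine carrier of the inner membrane, read 855, against 487 and 550 (log2 0.72, SE 0.13). Cpt2, which returns the acyl group to coenzyme A in the matrix, read 673, against 408 and 428 (log2 0.69, SE 0.11). All 3 values lay clear of the control pair, and none passed in the bright subset (limma adjusted p 0.237, 0.144 and 0.138). Acadm, the medium-chain acyl-CoA dehydrogenase, read 2014 with fungal oil, against 1357 and 1371, on an _f probe set. Hadh, the dehydrogenase of short chains, read 1624, against 1291 and 1378.

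The omega-hydroxylase Cyp4a10 stood out among 10 peroxisomal and omega oxidation genes. Cyp4a10, which hydroxylates the methyl end of fatty acids including arachidonate and is a target of PPAR alpha, read 894 with fungal oil, against 321 and 349 in the controls (log2 1.42, SE 0.14, limma adjusted p 0.0249 in the bright subset). Its relative Cyp4a14 read 160 with fungal oil and below 0 in both controls (-10 and -5), at least 10.7-fold higher when the controls are set to the floor. With controls below 0 it was kept only through the oil-fed RNAs, so its rise is in part fixed by the filter. Its log2 difference was 3.42, but 0.70 in a fit with 1 fungal-oil effect over the diets with and without fish oil. The same fit gave 0.54 for Cyp4a10, against 1.42. The remaining members were closer. Catalase (Cat) read 3546 with fungal oil, against 3282 and 3091, and the multifunctional enzyme Hsd17b4 read 2157, against 1793 and 1898. Ppara itself read 1626 with fungal oil, against 1158 and 1325.

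Genes of the eicosanoid pathway, in which arachidonate is the substrate, were largely near the controls. This list leaves out the Cyp4a genes given above, of which Cyp4a10 passed in the bright subset. Of the 50 genes in the list 33 were on the arrays and 14 were kept, with 7 above both controls, 3 between and 4 below, a median of 0.12, and 1 nominally lower. None of the 14 passed in the bright subset or over all probe sets. The epoxygenase Cyp2j5 read 1412 with fungal oil, against 1403 and 1415. Soluble epoxide hydrolase, Ephx2, read 1338, against 1139 and 1327. Prostaglandin dehydrogenase Hpgd read 300, against 285 and 260, and leukotriene hydrolase Lta4h read 155, against 146 and 141. For these 4 the fungal-oil value lay within or just above the control pair. The nominal member was Anxa1, a phospholipid-binding protein, at -2 with fungal oil and 111 and 88 in the controls, at least 6.59-fold lower. The inducible cyclooxygenase Ptgs2 read -10 with fungal oil and -5 and -13 in the controls, and the phospholipase Pla2g4a -6 with fungal oil and -9 and -3 in the controls, so neither was measurable here. Thromboxane synthase, Tbxas1, was likewise under the brightness cut but read 17 with fungal oil, against 94 and 96 in the controls.

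The clock output genes Dbp and Upp2 read higher with fungal oil and passed in the bright subset. Dbp, a transcription factor driven directly by the clock, read 581 with fungal oil, against 176 and 162 in the controls, 3.44-fold higher (log2 1.78, SE 0.14, limma adjusted p 0.0182 in the bright subset). Upp2, a liver uridine phosphorylase, read 2044 with fungal oil, against 806 and 812 (log2 1.34, SE 0.08, limma adjusted p 0.0182). The repressors Bhlhe40, at 365 against 248 and 224, and Per1, at 248 against 175 and 157, were nominally higher. Of the 8 clock genes kept, 4 were above both controls, 2 between and 2 below. Those below were Nfil3, a repressor that opposes Dbp, at 53 with fungal oil and 54 and 84 in the controls, and Clock at 43, against 63 and 61. Labels give the hour of death only as morning, and its part in these differences was not tested.

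Alas1, which catalyses the rate-limiting step of haem synthesis in liver, read 4573 with fungal oil, against 1299 and 1177 in the controls. At 3.70-fold higher (log2 1.89, SE 0.13, limma adjusted p 0.0129 in the bright subset) it lay far above the control pair. Alas2, the form of the same enzyme in red cell precursors, read 549 with fungal oil, against 1081 and 990 (nominal). Later steps showed less: Cpox read 1128 with fungal oil, against 871 and 767 (nominal), Urod 204, against 163 and 175, and Fech, the last step, 148, against 165 and 136. A second Cpox probe set went the other way, at 348 with fungal oil, against 452 and 437. Over 12 haem and iron genes, 6 were above both controls, 3 between and 3 below. Erythroid markers, which Alas2 belongs to, summed to 11873 with fungal oil and to 14178 and 12059 in the controls, and the part of red cells in the Alas2 difference was not tested.

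Genes of drug oxidation mostly read higher. Of 19 genes of that list, which holds cytochromes P450 together with aldehyde dehydrogenases and flavin monooxygenases, 15 stood above both controls, 3 between and 1 below, with a median of 0.22 and 5 nominally higher. Cyp3a16 read 2805 with fungal oil, against 1398 and 1478 (log2 0.96, SE 0.12), and Cyp3a11, the main steroid and drug hydroxylase of the family, read 7297, against 4935 and 4618. Both are _f probe sets, so these related genes cannot be told apart here. Cyp2c29, of the family that also makes epoxides of arachidonate, read 6559 with fungal oil, against 5191 and 4996, and retinal dehydrogenase Aldh1a1 read 3917, against 2225 and 2548. Cyp2e1, which oxidises ethanol, stood at 9438 with fungal oil, against 9172 and 9171. The flavin monooxygenase Fmo5 was the member below both controls, at 658, against 886 and 776.

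Bile acid genes showed 7 of 13 above both controls, 5 between and 1 below, with a median of 0.21. Cyp7b1, of the alternative pathway of bile acid synthesis, read 1097 with fungal oil, against 783 and 793. The bile acid receptor Nr1h4 read 376, against 261 and 288. Amino acid and urea cycle genes showed 18 of 24 above both controls, 1 between and 5 below (median 0.19, 5 nominally higher and 1 lower). Ornithine aminotransferase, Oat, read 2432 with fungal oil, against 1574 and 1519, and Mat1a, which makes S-adenosylmethionine in liver, read 3915, against 2747 and 2949. Agxt, the peroxisomal alanine glyoxylate aminotransferase, was the nominally lower member at 1555, against 2400 and 2296. The hepatocyte marker list had a median of 0.05.

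Fasting and gluconeogenesis genes were mixed, with 7 of 14 above both controls, 1 between and 6 below. Errfi1, a feedback inhibitor of the EGF receptor, read 2776 with fungal oil, against 1534 and 1510 (log2 0.87, SE 0.07, limma adjusted p 0.0335 in the bright subset). G6pc, the phosphatase that releases glucose, read 1224 with fungal oil, against 969 and 1160. Igfbp2, an IGF binding protein that rises on fasting, read 428, against 663 and 661 (nominal). Angptl4, a fasting-induced lipoprotein lipase inhibitor, read 191, against 75 and 133.

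**Figure D3:**
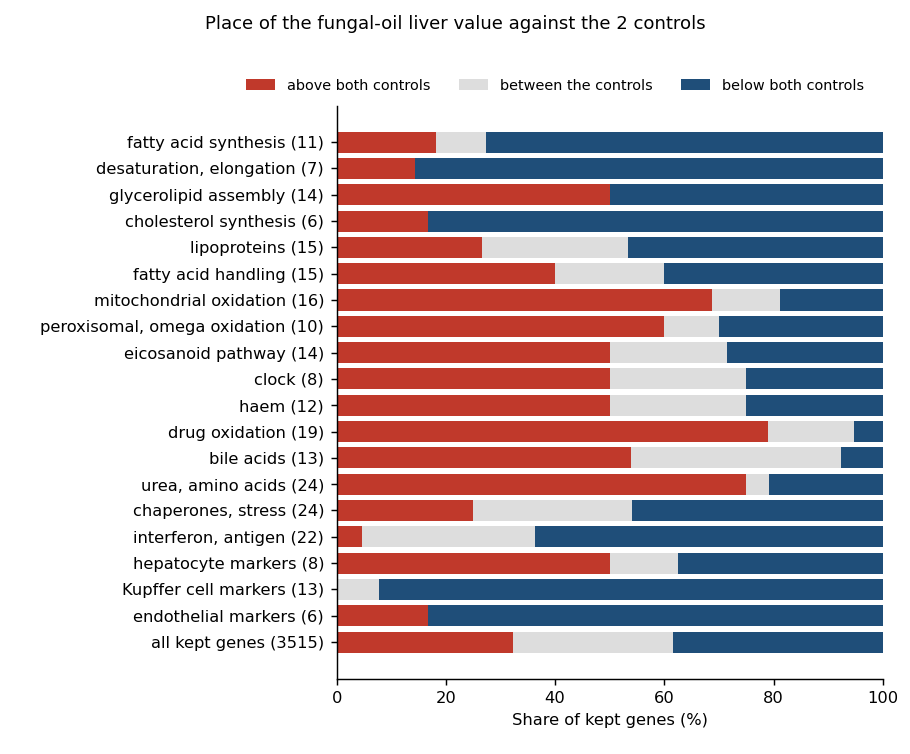
Share of the kept genes of each list (x axis, %) whose fungal-oil intensity stood above both controls (red), between them (grey) or below both (blue), with the number of kept genes in brackets. For all 3515 kept genes the shares were 32.3% above and 38.5% below. Drug oxidation genes lie mostly above and Kupffer cell markers almost all below.

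Chaperone and stress genes were mixed, with more below the controls than above. Of 24, 6 stood above both controls, 7 between and 11 below (median -0.07), with 6 nominally lower and 1 nominally higher. The nominally higher gene was Herpud1, a component of endoplasmic reticulum protein degradation, which read 1626 with fungal oil, against 991 and 1076 (log2 0.66, SE 0.10). Atf5, a stress-responsive transcription factor, read 505, against 875 and 864 (log2 -0.78, SE 0.10). The chaperone Hspa5 read 1996 with fungal oil, against 2989 and 2614, and the co-chaperone Hsph1 129, against 231 and 237. None of the 4 passed in the bright subset. Creld2, induced by endoplasmic reticulum stress, read 72 with fungal oil, against 222 and 289 (log2 -1.81, SE 0.24, limma adjusted p 0.0605).

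Markers of Kupffer and endothelial cells mostly read lower with fungal oil. Of the 13 Kupffer cell markers kept, 12 stood below both controls and 1 between, with a median log2 difference of -0.62 and 5 nominally lower, where 6.12% of all genes were. Their intensities summed to 2563 with fungal oil, against 3457 and 3448. Lysozyme, Lyz2, read 262 with fungal oil, against 472 and 376. Cd5l, secreted by resident macrophages, read 147, against 224 and 228. Clec4f, which defines Kupffer cells in mouse, read 132, against 180 and 254, whereas Mpeg1 read 657, against 705 and 802. Adgre1, the macrophage antigen of the F4/80 antibody, was below 0 with fungal oil (-6), against 55 and 63 in the controls, and Marco was near 0 throughout (-3 with fungal oil, 10 and -15 in the controls).

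Of 6 endothelial markers, 5 were below both controls and 1, Tie1, above, and the sums were 1519 with fungal oil, against 2169 and 1937. Kdr, the VEGF receptor, read 166 with fungal oil, against 404 and 326, and the sinusoidal scavenger receptor Stab1 read 63, against 129 and 116. Stellate and stromal markers were near the controls, with a sum of 3984 with fungal oil, against 3933 and 3957. The 2 cholangiocyte markers kept summed to 202, against 206 and 151. Granulocyte markers summed to 312, against 465 and 579, and the 8 lymphocyte markers to 2965, between the controls at 3203 and 2736. Of these 8, 2 stood above both controls, 2 between and 4 below, with a median log2 difference of -0.33. At least 2-fold below both controls were 2 of the 8. In RNA of whole tissue, fewer cells of a type and less RNA per cell cannot be told apart.

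Immune genes mostly read lower too. Of 22 interferon and antigen presentation genes, 1 stood above both controls, 7 between and 14 below (median -0.24). Ly6e, an interferon-induced surface protein, read 2304 with fungal oil, against 2837 and 2859, Irf7, a regulator of interferon genes, 70, against 121 and 121, and Cd74, the invariant chain, 417, against 555 and 753. The leukocyte genes Lgals3, Selplg and Samsn1 stand beside marker sums that were lower for Kupffer cells and granulocytes and between the controls for lymphocytes. Taken singly, 4 of the 8 lymphocyte markers were below both controls and 2 above. Lgals3, a lectin abundant in macrophages, read 49 with fungal oil, against 215 and 196. Selplg, the leukocyte ligand of P-selectin, read 120, against 318 and 362. Samsn1, an adaptor of haematopoietic cells, read 121, against 615 and 484 (limma adjusted p 0.0206 in the bright subset). The part of cell composition in these differences was not tested. Lgals3 and Samsn1 are _f probe sets.

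Several other bright genes read far lower with fungal oil. Neat1, the long RNA that scaffolds nuclear paraspeckles, read 394 with fungal oil, against 1218 and 1269 (log2 -1.66, SE 0.10, limma adjusted p 0.0150 in the bright subset). Emc10, a subunit of the endoplasmic reticulum membrane protein complex, read 63, against 376 and 316 (log2 -2.45, SE 0.18, limma adjusted p 0.0150). Plod3, a collagen lysyl hydroxylase, read 69, against 368 and 313 (log2 -2.30, SE 0.18, limma adjusted p 0.0150). All 3 fungal-oil values lay far under control pairs that were close to each other. Dct, an enzyme of melanin synthesis, read 159 with fungal oil, against 637 and 1028 (adjusted p 0.0299), and Sertad2, a transcriptional cofactor, 167, against 796 and 564 on an _f probe set (adjusted p 0.0381). The water channel Aqp8 read 352, against 741 and 815 (adjusted p 0.0470). Ptprf, a receptor tyrosine phosphatase, passed at 1 of 3 probe sets, with 153 against 387 and 395, while the other two gave log2 differences of 0.46 and -0.00. Diaph1, a formin that nucleates actin, read 45, against 164 and 168, and Anp32a, a nuclear phosphoprotein, 74, against 247 and 380. A second Anp32a probe set read 156, between the controls at 164 and 140.

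Among the bright higher genes, S100a13, a calcium-binding protein, was farthest at 473 with fungal oil, against 21 and 84, a log2 difference of 3.49 with a wide SE of 0.99. Mpdu1, of dolichol-linked sugar use, read 598, against 62 and 181, and Tsc2, the tumour suppressor that restrains mTORC1, 249, against 54 and 90. In these 3 the controls themselves differed by more than 1.5-fold, and none passed. At S100a13 and Tsc2 the mean of the other liver RNAs lay under the bright cut. These genes counted as bright only through the fungal-oil value, so their rise is in part fixed by the filter. Closer control pairs were found at Pepd, the dipeptidase prolidase (299 with fungal oil, against 134 and 122), at Ube2s, a ubiquitin-conjugating enzyme (466, against 190 and 217), and at the mitochondrial adenylate kinase Ak4 (308, against 144 and 116). The probe set of Trav12d-2, a T cell receptor segment, read 258, against 135 and 97.

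Among the dimmer kept genes with no array at the floor, Tk1, thymidine kinase, read 144 with fungal oil, against 41 and 30. Another cell cycle gene, the mitotic kinase Plk1, read 156, against 402 and 370. Over 14 cell cycle genes 3 were above both controls, 5 between and 6 below. Fam114a2, Ctdsp2, Ncam1 and Polr2a were the others farthest above, with log2 differences between 1.65 and 2.01. At Fam114a2 and Polr2a the mean of the other liver RNAs lay under the chip A cut of 46.0. They were kept only through the fungal-oil value, so their rise is in part fixed by the filter. Ncam1 rests on 1 of 5 probe sets: of the others, 2 were higher and 2 lower with fungal oil. Arpc4, of the actin-nucleating Arp complex, and Mfap2, a microfibril protein, were farthest below, at 16 with fungal oil, against 117 and 120, and at 17, against 122 and 119. Klk1b16, Bcat1 and Trappc4 followed with log2 differences between -2.23 and -2.29. Polr2a and Klk1b16 are _f probe sets. Of the 26 calls in the bright subset, 17 had 1 gene symbol and 9 had none (2 higher and 7 lower). Probe sets of the _f kind made up 38.5% of the calls and 23.5% of the bright subset.

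**Figure D4:**
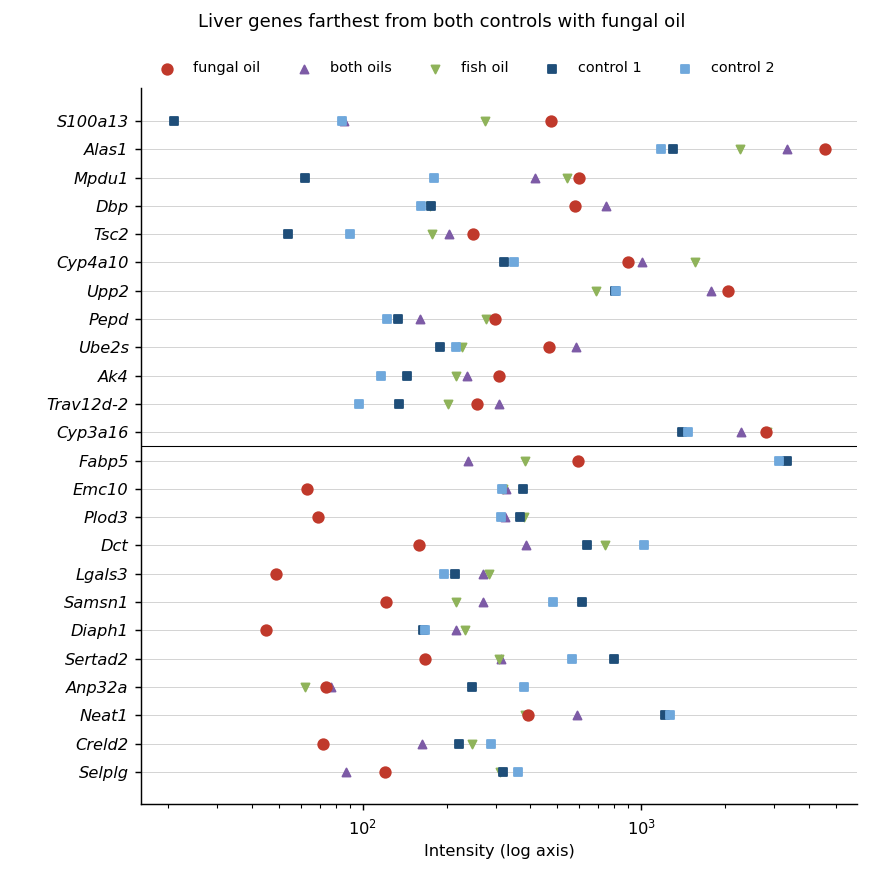
Intensity (x axis, log scale) of the 12 bright genes farthest above both controls (upper rows) and the 12 farthest below (lower rows) in each liver RNA: fungal oil (red circles), both oils (purple triangles), fish oil (green triangles) and the 2 controls (blue squares). For Emc10 and Plod3 the fungal-oil value, at 63 and 69, stands apart from all 4 other RNAs, whereas for Dbp the fungal-oil and both-oils values, 581 and 747, stand apart from the other three.

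The fungal oil was also added to fish oil, which gives a second contrast of the same oil with no RNA in common with the first. On chip B the Gapdh 3'/5' ratio was 3.26 with fish oil and 1.92 with both oils. It was 1.95 and 1.89 on chip A, and that of actin on chip B was 3.33 and 3.32. The part of RNA integrity in this pair was not tested. Dbp, Upp2 and Ube2s read higher and Acly, Fasn and Gpam lower in both pairs. Dbp read 747 with both oils, against 174 with fish oil alone (log2 2.10), and Upp2 1779, against 687 (log2 1.37). Fasn read 966 with both oils, against 4104 with fish oil (log2 -2.09), and Acly 878, against 1754. All 11 fatty acid synthesis genes had a lower intensity with both oils than with fish oil, as had all 7 desaturation and elongation genes. The lists share genes, so these counts are not separate. Their medians were -0.64 and -0.48, where the median over all genes was 0.02. One of the synthesis genes, Pgd, was under the floor in both RNAs, so its lower value is not a measured difference. Scd1 read 5541, against 9493, a wider gap than in the first pair, and Thrsp, which was above the controls there, was lower here at 1505, against 2353. Apoa4 read 117, against 629, Atf5 281, against 563, and Selplg 87, against 310.

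Other differences did not recur in the second pair. Emc10 read 328 with both oils, against 318 with fish oil, and Plod3 325, against 380. Neat1 read 588, against 384, opposite in sign to the first pair, and Cyp4a10 1010, against 1566, also opposite. S100a13 read 86, against 275. At Cyp4a10 and Neat1 the fish-oil RNA also lay outside the same control RNAs, on the side of the fungal-oil RNA. That RNA was on this side of the control mean at 11 of the 12 bright genes farthest above the controls. The count was 9 of the 12 farthest below, and 1144 of 1878 over all bright genes. Fish-oil and fungal-oil differences share the same controls, and the 12 genes each way were chosen by distance from them. Agreement in side is thus in part built in. Alas1 (2265) and Acly (1754) with fish oil were likewise outside the controls on this side. Dbp with fish oil (174) was within the controls, and Upp2 (687) was on the other side. Cyp4a10 read 1566 with fish oil, against 321 and 349 in the controls, and Neat1 384, against 1218 and 1269. Fabp5 did keep its direction, at 238 with both oils, against 384 with fish oil (log2 -0.69), and there too the fish-oil RNA was far under the controls at 3334 and 3137. Kupffer cell markers were higher with both oils in 8 of 13 cases, with a median of 0.17 and sums of 2724, against 2384 with fish oil. Each of these sums was under those of the controls, 3457 and 3448. The drug oxidation list had a median of -0.11 and the mitochondrial oxidation list -0.04 in the second pair.

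**Figure D5:**
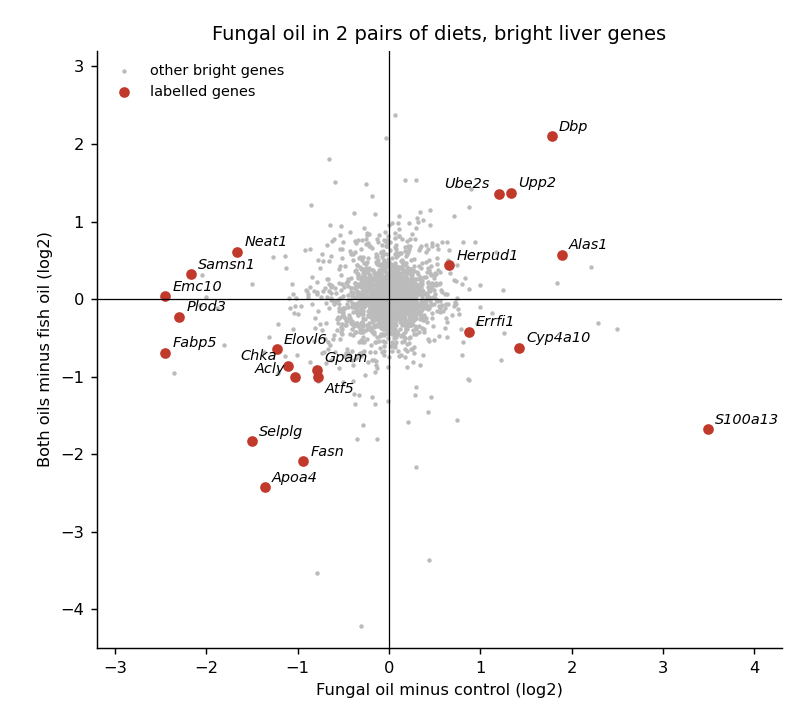
Log2 difference of both oils minus fish oil (y axis) against that of fungal oil minus control (x axis) for the 1878 bright genes, each from single or paired liver RNAs that the 2 axes do not share. Dbp and Upp2 lie in the upper right and Fasn, Apoa4 and Acly in the lower left, while Emc10 and Plod3 lie far left near the horizontal line at 0.

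Across all 3515 kept genes the pairs did not resemble each other: 52.5% of those higher with fungal oil were again higher with both oils than with fish oil, 48.8% of those lower were again lower, and r was -0.02. Bright genes resembled each other weakly between the pairs. Of the 926 bright genes higher with fungal oil, 491 (53.0%) were again higher with both oils than with fish oil, and of the 952 lower, 502 (52.7%) were again lower, with r = 0.11 across genes, which are not independent replicates. At the bright genes at least 2-fold from both controls the counts were 6 of 10 and 16 of 24. Of the 26 calls of the bright subset, 5 of the 7 higher and 11 of the 19 lower recurred in sign. In limma, the contrast of both oils against fish oil had 0 calls over all probe sets (581 at an unadjusted p under 0.05, 24 in the bright subset), and the difference between the pairs also had 0 (607 unadjusted, 1 in the bright subset).

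A fit in which the fungal oil has 1 effect over both pairs, which leaves more residual freedom, called 5 of 6537 probe sets, 3 higher (0.0459%) and 2 lower (0.0306%). Dbp was higher by 1.92 on the log2 scale (limma adjusted p 0.0204), Upp2 by 1.35 (adjusted p 0.0204), and Acly had a log2 difference of -1.01 (adjusted p 0.0325). The other two calls had no single gene symbol. One read 2682 with fungal oil, against 910 and 933 in the controls, and 2362 with both oils, against 1100 with fish oil. The other read 939 with fungal oil, against 2363 and 2663, and 530 with both oils, against 1117 with fish oil.

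In hippocampus of the same diets, 1 RNA each and without a test, Dbp read 206 with fungal oil and 111 in the control, while Ube2s was lower at 204, against 451. Alas1, at 538 against 556, Fabp5, at 783 against 807, and Acly, at 420 against 461, were near the hippocampus control, as were Emc10, at 513 against 550, and Plod3, at 466 against 477.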

How the data were processed

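Intensities on a linear scale were deposited by the authors for 17 Affymetrix Mu11K arrays, as whole numbers that can be negative. Their trimmed mean (2.0% trim) was close to 150.3 on every liver array, so the values had been scaled to a common level. Neither software nor background step is given in the sources used here. Probe sets took gene symbols from the platform annotation, which gave 1 symbol to 5541 of 6529 probe sets on chip A and 2001 of 6540 on chip B. Intensities were floored at 15.0, 0.1 of the trimmed mean, before log2. limma 3.58.1 (R 4.3.3) fitted 5 liver RNAs as 4 diet groups on each chip with an intensity trend. There was 1 residual degree of freedom, with 2.17 prior degrees of freedom on chip A and 2.05 on chip B. Benjamini-Hochberg adjustment ran over the 2 chips jointly. The fit was tested on simulated data. Tables were made with Python 3.11.15. The filter kept probe sets from a mean of 46.0 on chip A (45.8 left out) and 29.6 on chip B (29.4 left out). A fold given as "at least" sets values below the floor to it.

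Named genes are list members, the 12 bright genes farthest above and below the nearer control, the 5 farthest each way among the dimmer kept genes with no array at the floor, and calls of the bright subset. Members and lists were chosen with earlier results of these data known. Depth does not apply to arrays, and their number limits the precision. Alternatives were the floor, the filter, the bright subset, quantile normalization, no trend, an additive fit, other fold limits and leaving out each control.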

Additional observations from a re-analysis of the deposited data

Results flagged for a closer look

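Flagged were 3 probe sets at which the fungal oil went with opposite directions without and with fish oil. One is the bright-subset call for the difference between the pairs. The others are genes named as farthest from both controls that also differed at least 2-fold between both oils and fish oil. Smaller reversals, as at Neat1 and Cyp4a10, are left out by this rule. Of the 3, 1 passed a test of the difference, in the bright subset only. A chip B probe set with no gene symbol, ET62206_r_at, read 415 with fungal oil, against 165 and 212 in the controls, and -26 with both oils, against 611 with fish oil. Its effect without fish oil minus that with fish oil was 6.50 on the log2 scale (SE 0.54), past the threshold in the bright subset (limma adjusted p 0.0433) and not over all probe sets. The both-oils value was below the floor, so the size depends on the floor. S100a13 read 473 with fungal oil, against 21 and 84, and 86 with both oils, against 275 with fish oil, a difference between the effects of 5.17 (SE 1.51, limma adjusted p 0.529). Fam114a2 read 81 with fungal oil, against 16 and 27, and 38 with both oils, against 91 with fish oil, a difference of 3.22 (SE 0.84, limma adjusted p 0.529). The S100a13 and Fam114a2 differences did not pass. S100a13 was bright, and Fam114a2 was kept, only through its fungal-oil value. Their rise with fungal oil is in part fixed by the filter.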

How the results depend on the processing

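The count of 0 calls held under quantile normalization, 0.5 and 2.5 times the floor, and no trend. It became 26 in the bright subset, 5 in the additive fit and 328 with no filter, 303 of these with both controls at the floor. Leaving out a control leaves no residual freedom, so no calls were counted then. Genes at least 2-fold above both controls (45) numbered 123 with no filter, 10 in the bright subset, 125 at 1.5-fold, 18 at 3.0-fold, and 134 to 146 without a control. Genes 2-fold below (117) numbered 70 at 2.5 times the floor, 183, 24, 238 and 45 under the same settings, and 174 to 200 without a control. Of 234 list medians, 231 moved by less than the between-control SD of a single list member. That is a wide limit for a median, and medians near 0 could change sign within it. Fatty acid handling went from 0.21 to -0.01 without control 2, and cell cycle from 0.01 to -0.10 without control 1. The exceptions were desaturation and elongation (-0.18 under quantile normalization) and adipocyte markers (-0.69 and -0.10 without control 1 and control 2). Of 856 values of 110 named genes, 839 kept their direction. The additive fit turned Cyp2e1 (-0.23), Cyp2j5 (-0.04), Ephx2 (-0.04), G6pc (-0.56), Hpgd (-0.01), Insig2 (-0.52), Lta4h (-0.04), Thrsp (-0.13), Urod (-0.04), Mpeg1 (0.46) and the brightest Ptprf probe set (0.04). Quantile normalization turned Cyp2j5 (-0.05), Fech (0.04) and Ptprf (0.06), and leaving out control 1 turned Cyp2j5 (-0.00), Fech (0.12, against -0.16 without control 2) and Ptprf (0.01). The cause was not tested. Quantile normalization moved the median of all genes to 0.01, against -0.02. No paired analysis was possible because the fungal-oil group holds a single RNA. With 1 fungal-oil RNA, its own spread was not measured.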
